A study of Mus musculus with 6 samples.

Results

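Glucocorticoid hormones act on lymphocytes through the glucocorticoid receptor, encoded by Nr3c1, and 6 genes of this pathway were followed in mouse liver iNKT1 cells with the transcription factor gene Ets1 deleted or intact. The 6 genes are the receptor gene itself and Fkbp5, Tsc22d3, Sgk1, Ddit4 and Txnip, which are known to respond to the hormone. They were chosen by name, with earlier results of these data known. All 6 are among the 12942 genes of the deposited table, and all 6 passed the filter on low values that left 11226 genes to test. iNKT1 cells are a subset of natural killer T cells, which see lipid antigens on CD1d, and they depend on T-bet, encoded by Tbx21.

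The cells were sorted from liver as CD1d-tetramer positive and YFP positive. All 6 libraries are labelled iNKT1 as to cell type, but the titles of cKOHet replicate 1 and Control replicate 4 say iNKT. The cKOHet group (3 libraries, replicates 1, 2 and 4) had the genotype Tbx21Cre Ets1F/F Tbx21F/+ Rosa26-YFP+, that is, floxed Ets1 on both alleles and floxed Tbx21 on 1 allele. The Control group (3 libraries, replicates 1, 2 and 4) was Tbx21Cre Rosa26-YFP+, so that Cre and the reporter are shared by both groups. Because Cre depends on Tbx21, recombination is limited to cells that have expressed that gene, and since cKOHet cells carry both floxed genes, an effect of Ets1 and an effect of the Tbx21 allele cannot be told apart. In both groups the data column of replicate 1 carries a double name, for which no label gives a reason. The labels call the replicates independent without saying which mice they came from, and give no age, so part of the spread behind each p-value may be technical.

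In a cell without hormone the receptor is held in the cytoplasm by Hsp90 and its cochaperones. Bound hormone sends it to the nucleus, where it activates some genes from palindromic DNA elements and restrains others, among them many inflammatory cytokine genes. In T cells glucocorticoids curb cytokine production and can trigger death of immature cells. The target genes followed here feed back on the receptor (Fkbp5), restrain inflammatory transcription (Tsc22d3), phosphorylate ion channel regulators and Foxo factors (Sgk1), brake the growth kinase complex mTORC1 (Ddit4) and bind thioredoxin while limiting glucose uptake (Txnip). Most of them also answer to other signals, such as nutrients, growth factor loss or cell stress.

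The promoter stretches below are shown because they hold motif matches found near 4 of these genes, including the palindrome of the receptor. Each gives the 250 bases before an annotated transcription start, 5′ to 3′ on the strand of the gene, from RefSeq on GRCm38.p6, with every matched motif in capitals. RefSeq promoter windows, which run from 250 bases before to 50 bases after a start, were found for 5 of the 6 genes and numbered 12 in all, with 6 for Sgk1, 3 for Tsc22d3 and 1 each for Fkbp5, Ddit4 and Txnip. Further Sgk1 windows with a match, at the starts 21882184 and 21992223, are not printed. The Sgk1 stretch is chr10:21993640-21993889 on the plus strand, the Tsc22d3 stretch chrX:140600523-140600772 on the minus strand, the Fkbp5 stretch chr17:28486150-28486399 on the minus strand and the Txnip stretch chr3:96557707-96557956 on the plus strand.
Sgk1: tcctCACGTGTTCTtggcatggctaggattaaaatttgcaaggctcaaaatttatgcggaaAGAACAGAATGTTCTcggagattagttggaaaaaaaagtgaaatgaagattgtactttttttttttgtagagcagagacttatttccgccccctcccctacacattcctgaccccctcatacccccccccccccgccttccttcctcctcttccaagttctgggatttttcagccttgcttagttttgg
Tsc22d3: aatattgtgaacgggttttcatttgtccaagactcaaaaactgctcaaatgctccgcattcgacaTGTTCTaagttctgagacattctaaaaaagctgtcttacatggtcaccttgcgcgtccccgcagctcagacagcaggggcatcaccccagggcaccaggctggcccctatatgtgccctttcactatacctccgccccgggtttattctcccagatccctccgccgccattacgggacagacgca
Fkbp5: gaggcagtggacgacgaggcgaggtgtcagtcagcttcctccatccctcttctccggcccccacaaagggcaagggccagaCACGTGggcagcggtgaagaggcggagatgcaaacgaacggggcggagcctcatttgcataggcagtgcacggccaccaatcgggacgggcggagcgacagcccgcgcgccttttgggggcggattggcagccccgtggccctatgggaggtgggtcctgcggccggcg
Txnip: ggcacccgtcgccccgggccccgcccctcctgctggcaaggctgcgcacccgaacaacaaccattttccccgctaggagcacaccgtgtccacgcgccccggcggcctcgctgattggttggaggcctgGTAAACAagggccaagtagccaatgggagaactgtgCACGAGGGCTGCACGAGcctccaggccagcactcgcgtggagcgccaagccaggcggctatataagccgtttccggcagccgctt

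The full receptor palindrome, AGAACA followed after any 3 bases by TGTTCT, occurred in 1 of the 12 windows, in Sgk1, as AGAACAGAATGTTCT at -189 to -175 relative to the start at position 21993890. Of 32851 windows of the same length over all genes, 3 held it (0.00913%). Its hexamer AGAACA, searched on both strands and so also as TGTTCT, occurred in 4 of the 12 windows and in 19.0% of all windows. Those were 3 windows of Sgk1 and 1 of Tsc22d3. The match in Tsc22d3 lay at -185 to -180 relative to the start at position 140600522, and 2 of the hexamers in Sgk1 are the arms of the palindrome. The E-box CACGTG, which binds helix-loop-helix factors, lay at -169 to -164 relative to the Fkbp5 start and at -246 to -241 relative to the same Sgk1 start, where it overlaps another hexamer. It was found in 7.15% of all windows.

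Txnip held 2 further motifs. A carbohydrate response element (CACGNG, any 5 bases, CACGNG), through which MondoA-type factors act on glucose signals, lay at -85 to -69, as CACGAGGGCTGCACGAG, and was found in 0.0487% of all windows (16 of 32851). A forkhead motif, GTAAACA, lay at -121 to -115 and was found in 3.65% of all windows. An Ets motif, CCGGAAG, and a cyclic AMP element, TGACGTCA, had no exact match in any of the 12 windows, against 8.86% and 1.79% of all windows. The window of Ddit4 held none of the motifs searched. These are letter matches and say nothing of binding.

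**Figure D1:**
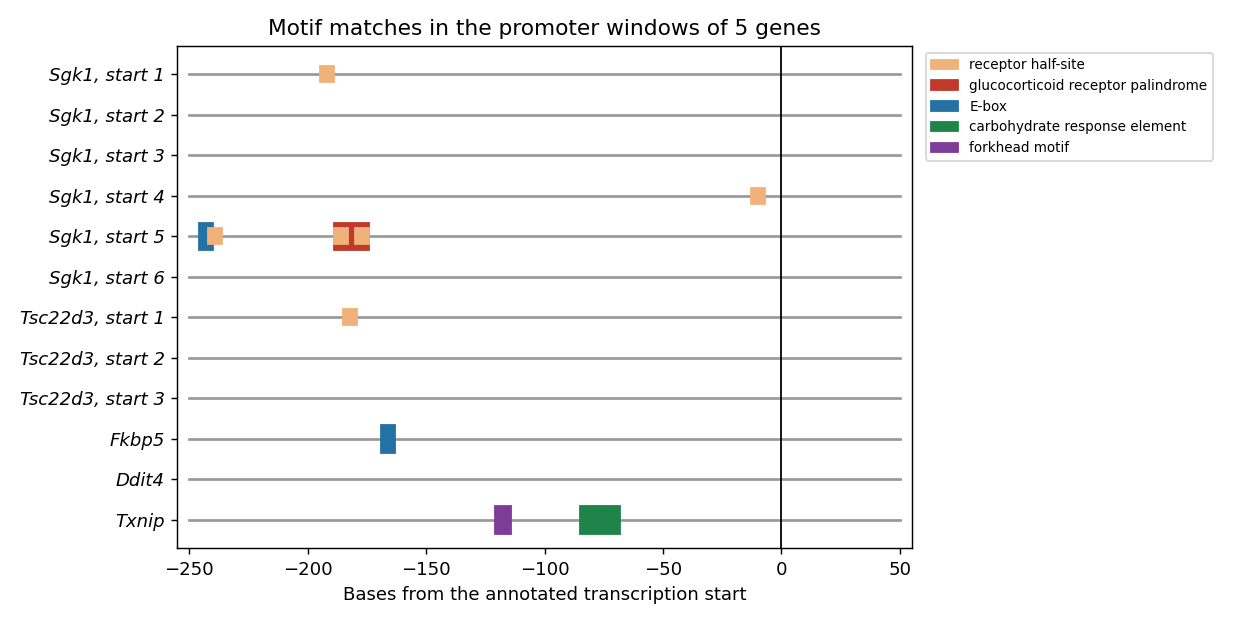
Motif matches in the 12 promoter windows of 5 of the genes, drawn by distance in bases from each annotated transcription start (negative before it), with starts numbered in the direction of transcription. Boxes mark the matches by motif, with the hexamer AGAACA as the receptor half-site. The receptor palindrome is in the Sgk1 window labelled start 5, at -189 to -175.

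Ets1, the deleted gene, averaged 499.8 ± 83.8 normalised read counts in cKOHet and 7144 ± 795 in Control libraries (SD, n = 3 each), lower by limma (log2 -3.84, SE 0.14, adjusted p = 1.06e-10). Tbx21 averaged 2206 ± 98.5 in cKOHet and 2568 ± 174 in Control libraries and was not called (adjusted p = 0.196). Its log2 fold change was -0.22 (95% interval -0.46 to 0.02). Every cKOHet library lay below every Control library for Tbx21, and groups did not overlap for 35.8% of all genes tested. All 10 genes checked as markers of T, iNKT or iNKT1 cells, among them the CD3 chains, Trac, Zbtb16 and Cxcr6, passed the filter on low values. Of these, Zbtb16 was called higher (log2 0.53), Il2rb and Cxcr3 were called lower (log2 -0.72 and -0.51) and 7 were not called. The share called was 30.0%, against 21.4% of all genes tested. Column totals were 5049835 to 5219483 in cKOHet and 4996523 to 5205155 in Control libraries. These totals are already normalised, so the original depth is unknown. Replicate 4 of each group had almost no Xist, at 0.08 in cKOHet and 1.17 in Control, against 4887.5 to 5657 in the other cKOHet and 4337 to 5032 in the other Control libraries. Of all genes tested, 2407 (21.4%) were called at an adjusted p under 0.05, with 1288 (11.5%) higher and 1119 (9.97%) lower in cKOHet libraries.

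Of the 6 glucocorticoid pathway genes, 4 rose, 1 fell and 1 was not called in cKOHet against Control libraries. The share called was 83.3%, against 21.4% of all genes tested. Since the genes were chosen with earlier results of these data known, these counts are a description. Tsc22d3, Ddit4, Txnip and Fkbp5 rose, by 3.46-fold, 1.94-fold, 1.54-fold and 1.46-fold on the log2(value + 1) scale. Sgk1 fell 7.66-fold. The receptor gene Nr3c1 was not called. The groups did not overlap for the 5 called genes, as for 35.8% of all genes tested. In bulk RNA, fewer cells that express a gene and less RNA per cell cannot be told apart.

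The receptor gene Nr3c1 (ENSMUSG00000024431) had 1190.5, 1229 and 1989.8 normalised counts in cKOHet replicates 1, 2 and 4, against 1237, 1224 and 996 in Control replicates 1, 2 and 4. The groups overlapped, and cKOHet replicate 4 alone lay above all the others. The log2 fold change was 0.32 (95% interval -0.05 to 0.68, adjusted p = 0.229), and without cKOHet replicate 4 it was 0.08 (adjusted p = 0.746). In libraries of like Xist level the difference was -0.02 over the 2 against 2 libraries with Xist and 1.0 over the 1 against 1 library without. With 1 library a group on one side, these values are a description.

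Fkbp5 (ENSMUSG00000024222, mm10 chromosome 17, 28399094 to 28517527) encodes FKBP51, a cochaperone that lowers the affinity of the receptor for its ligand and is itself induced by it. It had 503, 586 and 688 normalised counts in cKOHet replicates 1, 2 and 4, against 387, 424 and 399 in Control replicates 1, 2 and 4. The lowest cKOHet library lay above the highest Control library, and the Control libraries varied little (coefficient of variation 15.7% in cKOHet and 4.74% in Control). Its log2 fold change was 0.54 (SE 0.14, limma adjusted p = 0.0114). The call was kept without any 1 library (adjusted p = 0.00622 to 0.0472), but ended without the mean-variance trend (0.0709) and over the libraries with Xist alone (log2 0.42, adjusted p = 0.0889).

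Tsc22d3 (ENSMUSG00000031431, chromosome X, 140539528 to 140600659) encodes GILZ, a leucine zipper protein that inhibits NF-kappaB and AP-1 and carries part of the anti-inflammatory action of the hormone. It had the largest fold of the 4 genes that rose, with 313, 325 and 395 normalised counts in cKOHet replicates 1, 2 and 4, against 92.2, 88.7 and 116 in Control replicates 1, 2 and 4. All cKOHet libraries lay far above all Control libraries, and within each group replicate 4 was the highest. The log2 fold change was 1.79 (95% interval 1.40 to 2.18, SE 0.18, limma adjusted p = 4.42e-06). The gene is X-linked, and its difference was 1.81 over the libraries with Xist and 1.76 over the 1 against 1 library without. Counts are sums over the whole gene, so its long and short isoforms could not be separated.

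Sgk1 (ENSMUSG00000019970, chromosome 10, 21882184 to 21999903), the serum- and glucocorticoid-regulated kinase, moved the other way. It had 19.15, 13.75 and 6.33 normalised counts in cKOHet replicates 1, 2 and 4, against 125, 95.85 and 79.2 in Control replicates 1, 2 and 4. Every cKOHet library lay well below every Control library, and in both groups replicate 1 was the highest and replicate 4 the lowest. The log2 fold change was -2.94 (95% interval -3.80 to -2.07, SE 0.41, limma adjusted p = 7.62e-05). It ranged from -3.26 to -2.53 when libraries were left out 1 at a time. The promoter stretch of this gene printed above is the one with the receptor palindrome.

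Ddit4 (ENSMUSG00000020108, chromosome 10, 59949669 to 59951834) encodes REDD1, which restrains mTORC1 through the TSC complex. It had 524, 507 and 363 normalised counts in cKOHet replicates 1, 2 and 4, against 211, 222 and 282 in Control replicates 1, 2 and 4. The groups were apart in every library, but replicate 4 was the lowest cKOHet and the highest Control library, so the gap was smallest there. The log2 fold change was 0.95 (SE 0.17, limma adjusted p = 0.0009), with 1.25 over the libraries with Xist and 0.36 over the 1 against 1 library without. Here too 1 library a group stands on one side, and the values are a description.

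Txnip (ENSMUSG00000038393, chromosome 3, 96557957 to 96561883) encodes the thioredoxin-interacting protein. It had 5043, 3789 and 5681 normalised counts in cKOHet replicates 1, 2 and 4, against 3399.8, 2721.5 and 3241 in Control replicates 1, 2 and 4. All cKOHet libraries lay above all Control libraries, and replicate 2 was the lowest of each group. The log2 fold change was 0.62 (SE 0.15, limma adjusted p = 0.00777). The call was kept without any 1 library (adjusted p = 0.00161 to 0.0466), but ended without the mean-variance trend (0.0869) and over the libraries with Xist alone (log2 0.52, adjusted p = 0.0637). An antisense gene, Gm15441, overlaps its exons, and the strand setting of the counting is not given in the sources used here, so reads of the pair could not be told apart.

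**Figure D2:**
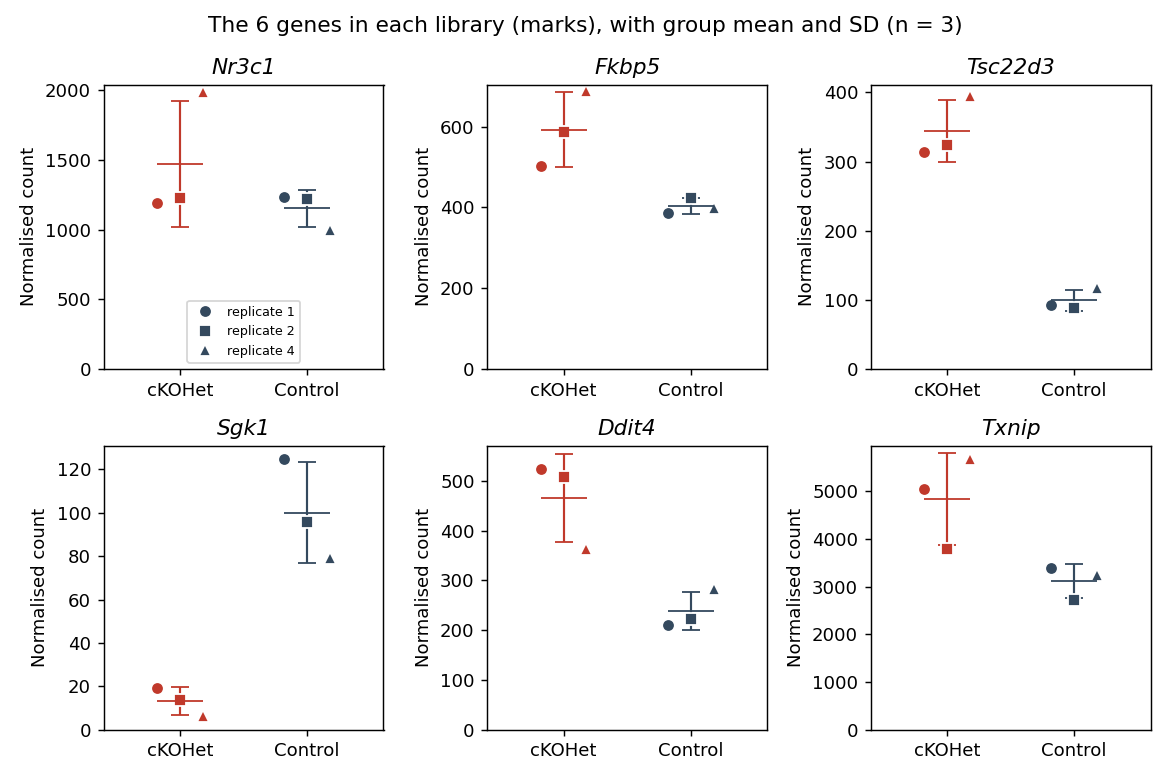
Normalised read counts of the 6 genes in each library (marks; circle, square and triangle for replicates 1, 2 and 4), with the group mean and SD (n = 3 each), cKOHet left and Control right, each axis starting at 0. Sgk1 lies between 6.33 and 19.15 in cKOHet libraries and between 79.2 and 125 in Control libraries, while Nr3c1 overlaps between the groups.

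**Figure D3:**
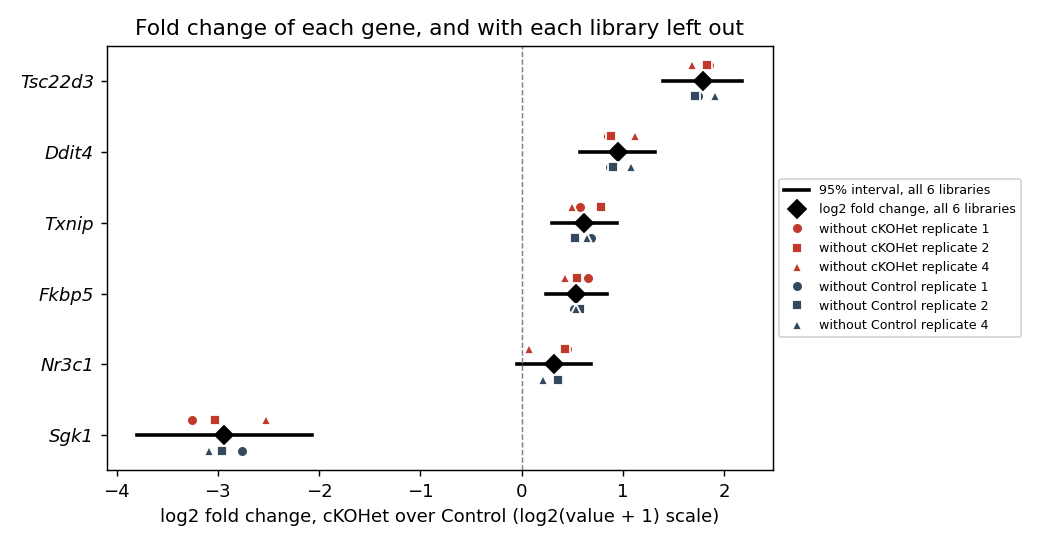
Log2 fold change of cKOHet over Control for each gene (diamonds) with its 95% interval (bars), and the value with each library left out in turn (coloured marks). The values for Tsc22d3 stay between 1.69 and 1.91 and those for Sgk1 between -3.26 and -2.53, and the value for Nr3c1 is 0.08 without cKOHet replicate 4.

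Within the cKOHet group, replicate 4 was the highest library for Nr3c1, Fkbp5, Tsc22d3 and Txnip and the lowest for Sgk1 and Ddit4. It was thus at an end of its group for all 6 genes, as it was for 71.7% of all genes tested. Control replicate 4 was at an end of its group for 4 of the 6, against 69.2% of all genes. The summed level of the 14 receptor chaperone genes was also highest in cKOHet replicate 4, at 32398, against 22473 and 22061 in cKOHet replicates 1 and 2 and 26392 to 29568 in Control libraries. The part of that library's state in these values was not tested.

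Divided by exon length, the order of levels per kilobase in cKOHet libraries was Txnip, Ddit4, Nr3c1, Tsc22d3, Fkbp5 and Sgk1. In these libraries Txnip averaged 1549 ± 308 normalised counts per kilobase, Ddit4 264.8 ± 50.3, Nr3c1 191.3 ± 58.7, Tsc22d3 79.3 ± 10.3, Fkbp5 62.5 ± 9.80 and Sgk1 2.67 ± 1.31 (SD, n = 3). In Control libraries the order was Txnip (999 ± 114), Nr3c1 (149.9 ± 17.6), Ddit4 (135.8 ± 21.9), Fkbp5 (42.6 ± 2.02), Tsc22d3 (22.8 ± 3.47) and Sgk1 (20.4 ± 4.73). In cKOHet libraries the ranges of Ddit4 and Nr3c1 overlapped, as did those of Tsc22d3 and Fkbp5. In Control libraries those of Nr3c1 and Ddit4 overlapped, as did those of Tsc22d3 and Sgk1. The last pair thus lay close together per length in Control cells and far apart in cKOHet cells.

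**Figure D4:**
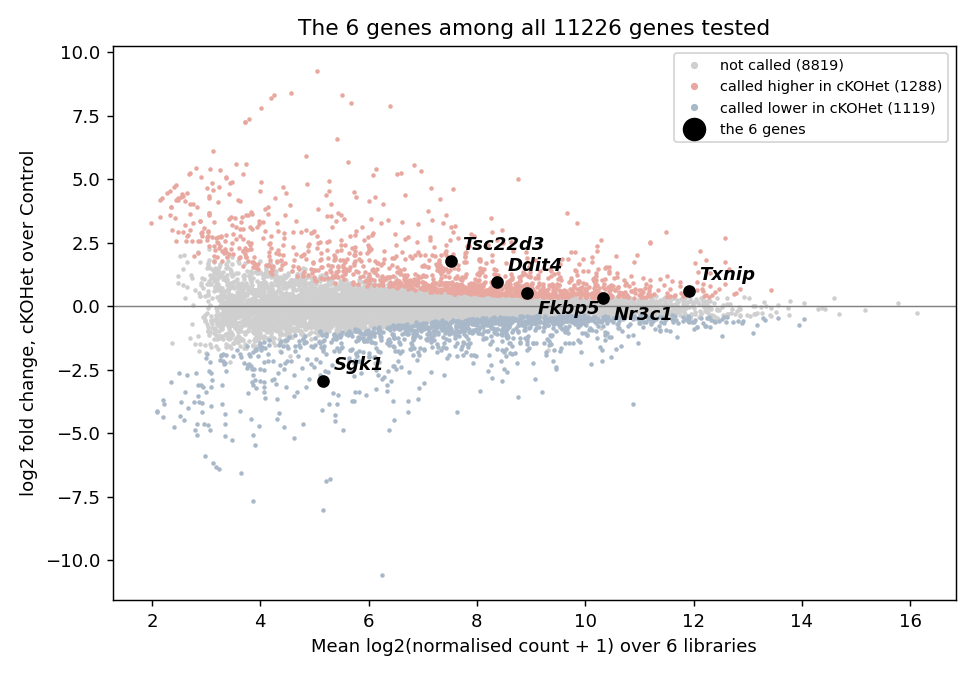
All 11226 genes tested, by mean log2 level over the 6 libraries (horizontal) and log2 fold change of cKOHet over Control (vertical), with called genes coloured and the 6 genes in black. Sgk1, at -2.94, is the only one of the 6 below 0.

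For each of the 6 genes, the 2 genes with the nearest profile over the 6 libraries were picked. Their closeness follows from that choice, and no background distance is given. Likeness was measured as the Euclidean distance between log2 profiles centred on each gene's own mean, over all protein-coding genes tested. The nearest to Tsc22d3 were Slc25a24 (distance 0.212), a mitochondrial carrier, and Ybx3 (0.214), a cold shock domain protein, with log2 fold changes of 1.72 and 1.78. The nearest to Sgk1 were Gmfg (0.321), an actin regulator, and Ctla2b (0.420), which fell by 2.81 and 2.74 on the log2 scale. Ddit4 had Serp1 (0.282) and Fhl3 (0.287), Fkbp5 had Edem1 (0.122) and Lnpk (0.126), Txnip had Meaf6 (0.203) and Uxt (0.211), and Nr3c1 had Pkd1 (0.090) and Clasp1 (0.137) as nearest profiles.

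Of 27 other genes known to be induced by glucocorticoids, 21 were tested, 6 rose, 3 fell and 12 were not called. The share called was 42.9%, against 21.4% of all genes tested. Their median log2 fold change was 0.15, against 0.007 over all genes tested. Sesn1, a stress sensor upstream of mTORC1, averaged 2205 ± 288 normalised counts in cKOHet and 1015 ± 213 in Control libraries (SD, n = 3 each; log2 1.13, limma adjusted p = 5.85e-05). Bcl2l11, which encodes the death protein Bim, averaged 1293 ± 335 in cKOHet and 574 ± 35.1 in Control libraries (log2 1.14). Hif3a, a hypoxia-inducible factor subunit, averaged 3.28 ± 4.23 in cKOHet and 51.4 ± 11.6 in Control libraries (SD, n = 3 each). It passed the filter on low values only through the Control libraries, so it had to differ, and its place among the 3 that fell is no support for them. Its fitted log2 value depends on the pseudocount, at -4.12 with a pseudocount of 1 and -2.86 with 5, and was -4.92 without cKOHet replicate 1 and -3.37 without cKOHet replicate 4. Rgs2, a regulator of G protein signalling, averaged 54.0 ± 17.1 in cKOHet and 179 ± 19.4 in Control libraries (log2 -1.75). Among the others that changed, all but Zbtb16 chosen here after their values were seen, Klf9, a zinc finger factor widely induced by the hormone, rose to 89.7 ± 7.18 in cKOHet, against 18.7 ± 13.0 in Control libraries (log2 2.54, and 1.77 without Control replicate 2). Errfi1, an inhibitor of the EGF receptor, and Cdkn1a, a cell cycle inhibitor, rose by 1.88 and 2.02 on the log2 scale, and the chemokine receptor gene Cxcr4 fell by 1.55.

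Of the induced genes tested and not called, the clock gene Per1 averaged 225 ± 62.5 in cKOHet and 218 ± 21.8 in Control libraries. The phosphatase gene Dusp1 averaged 98.3 ± 27.9 in cKOHet and 101 ± 33.1 in Control libraries (adjusted p = 0.975 for Per1 and 0.957 for Dusp1; both chosen after their values were seen). Zbtb16, of the same list and the gene of the lineage factor PLZF, averaged 954 ± 260.5 in cKOHet and 648 ± 21.6 in Control libraries. It was called higher (log2 0.53, adjusted p = 0.0267), and leaving out cKOHet replicate 4 (log2 0.31) or any 1 Control library ended that call (adjusted p = 0.0531 to 0.0912).

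Among cytokine and inflammatory genes that glucocorticoids are known to repress, Ifng, Il13 and Ccl5 rose. Of 17 listed, 11 were tested, 5 rose, 1 fell and 5 were not called, and the median log2 fold change was 0.73. The share called was 54.5%, against 21.4% of all genes tested. The effector cytokine gene Ifng averaged 1803 ± 312 normalised counts in cKOHet and 408.5 ± 61.5 in Control libraries, Il13 averaged 312 ± 19.4 in cKOHet and 15.3 ± 6.09 in Control libraries, and the chemokine gene Ccl5 averaged 9750.5 ± 2902 in cKOHet and 2099.9 ± 316 in Control libraries (log2 2.14, 4.32 and 2.19). The cytokine genes Il4 and Csf2, named with their values known, rose as well (log2 0.73 and 0.90), but the call of Csf2 ended without cKOHet replicate 2 and that of Il4 over the libraries with Xist alone (adjusted p = 0.0597 in both cases). Icam1, an adhesion molecule, averaged 469 ± 122 normalised counts in cKOHet and 798 ± 49.7 in Control libraries (log2 -0.80, limma adjusted p = 0.00206). Tnf, Ccl4, Nfkb1, Rela and Jun were tested and not called.

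Of 14 tested chaperone genes that hold the receptor, 1 rose, 2 fell and 11 were not called, with a median log2 fold change of 0.03. The share called, 21.4%, was that of all genes tested. Cdc37, which loads kinases onto Hsp90, averaged 982 ± 4.85 normalised counts in cKOHet and 1672 ± 221.5 in Control libraries (log2 -0.76, limma adjusted p = 0.000278). Dnaja1, an Hsp40 cochaperone, was called higher (log2 0.64, adjusted p = 0.0178), and this ended without cKOHet replicate 4, Control replicate 2 or Control replicate 4 (adjusted p = 0.0538 to 0.0738), with a log2 fold change of 0.39 without the first. Hspa8 was called lower (log2 -0.62, adjusted p = 0.0355), and its call was kept only without cKOHet replicate 4 (adjusted p = 0.0596 to 0.179 without any other library). Fkbp4, the relative of Fkbp5 that favours receptor transport, averaged 784 ± 161 in cKOHet and 741 ± 96.5 in Control libraries (adjusted p = 0.807, chosen after its values were seen). Reads of Hsp90 and Hsp70 genes may be shared with near-identical copies, so their levels are uncertain.

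Among the 11 receptor coregulators reported here, 4 rose and 7 were not called, with a median log2 fold change of 0.33. The share called was 36.4%, against 21.4% of all genes tested. Tbl1xr1, a subunit of the NCoR corepressor complex, averaged 1104 ± 141 normalised counts in cKOHet and 681 ± 43.4 in Control libraries (log2 0.69, limma adjusted p = 0.000901). The corepressor gene Ncor1 was called higher (log2 0.51, adjusted p = 0.014). The coactivator genes Ncoa1 and Ep300 were called higher (log2 0.63 and 0.49). Calls ended for Ncor1 without cKOHet replicate 4 or Control replicate 2 (adjusted p = 0.0504 and 0.0691) and for Ncoa1 without cKOHet replicate 4 or Control replicate 1 (0.153 and 0.138). Without cKOHet replicate 4 the number that rose was 1, that is Tbl1xr1, and without Control replicate 1 it was 2. The call of Ep300 (adjusted p = 0.0486) was kept only without cKOHet replicate 1 and ended without any other library (0.0586 to 0.188).

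Of 4 tested genes that handle the steroid itself, 2 fell and 2 were not called (median log2 fold change -0.17). Of all genes tested, 21.4% were called. The 2 not called, Hsd11b1 and Abcb1b, had log2 fold changes above 0 (0.35 and 0.84). Cyp11a1, of the same list, was not tested and was higher in every cKOHet library than in every Control library. Abcb1b and Cyp11a1 were named after their values were seen. Abcb1a, an efflux pump that carries glucocorticoids among other substrates, averaged 198 ± 10.6 normalised counts in cKOHet and 942 ± 226 in Control libraries, so that it fell by 2.22 on the log2 scale (SE 0.17, limma adjusted p = 2.14e-07). H6pd, which supplies the cofactor for regeneration of active hormone, averaged 304 ± 24.1 in cKOHet and 493.5 ± 44.0 in Control libraries (log2 -0.70). Hsd11b1, the enzyme that regenerates active hormone, averaged 642 ± 56.4 in cKOHet and 505 ± 75.2 in Control libraries and was not called (adjusted p = 0.0888, chosen after its values were seen). Abcb1a and its copy Abcb1b are close in sequence, and how reads shared by them were counted is not given in the sources used here.

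Of 15 relatives of the target genes tested, 2 rose, 2 fell and 11 were not called, with a median of 0.07. The share called was 26.7%, near the 21.4% of all genes, and the 2 that fell were not called without the mean-variance trend or over the libraries with Xist alone. Tsc22d1, of the same leucine zipper family as Tsc22d3, averaged 171 ± 14.6 normalised counts in cKOHet and 46.0 ± 12.9 in Control libraries (log2 1.90, limma adjusted p = 5.76e-05), while Tsc22d4 averaged 1165 ± 159 in cKOHet and 1513 ± 70.8 in Control libraries (log2 -0.39, adjusted p = 0.0383). Fkbp1a, the target of the drug FK506, fell by 0.52 and the arrestin-domain gene Arrdc4, a relative of Txnip, rose by 1.09 on the log2 scale. The call of Tsc22d4 ended without cKOHet replicate 1 or any 1 Control library (adjusted p = 0.0672 to 0.150), that of Fkbp1a without Control replicate 4 (0.0551), and that of Arrdc4 without cKOHet replicate 1 or 4 or Control replicate 1 (0.0585 to 0.0698).

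Of 7 thioredoxin and sugar sensing genes tested, 1 rose, 1 fell and 5 were not called (28.6% called, near the share of all genes; median -0.02). Txnrd1, a thioredoxin reductase, rose to 1984 ± 209 normalised counts in cKOHet, against 1374 ± 126 in Control libraries. Slc2a1, the glucose transporter that Txnip restrains, averaged 180.0 ± 17.0 in cKOHet and 271 ± 39.4 in Control libraries (log2 -0.58, limma adjusted p = 0.0234). Its call ended without cKOHet replicate 1 or 4 or Control replicate 1 or 4 (adjusted p = 0.0518 to 0.117). Of 9 TSC and mTORC1 genes tested, 1 rose and 8 were not called (11.1% called, against 21.4% of all genes; median 0.35). The mTORC1 activator gene Rheb was called at an adjusted p = 0.0464 (log2 0.44) and lost its call without any 1 library except cKOHet replicate 4 (adjusted p = 0.0868 to 0.185). Among the genes of the lists described so far, calls also ended without the mean-variance trend for Dnaja1, Hspa8, Ncor1, Ncoa1, Ep300, Fkbp1a, Tsc22d4, Txnrd1, Slc2a1, Rheb and Zbtb16. Over the libraries with Xist alone they ended for Dnaja1, Ncor1, Ncoa1, Ep300, Fkbp1a, Tsc22d4, Slc2a1 and Zbtb16. Apart from leaving out 1 library, Ep300 and Rheb each lost their calls in 6 of 13 alternatives and Hspa8 in 3.

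Of 7 upstream kinases and substrates of Sgk1 tested, 2 rose, 2 fell and 3 were not called (median 0.20). The share called was 57.1%, against 21.4% of all genes tested. Foxo1 averaged 367 ± 22.6 normalised counts in cKOHet and 595 ± 42.1 in Control libraries, whereas Foxo3 averaged 1677.5 ± 132 in cKOHet and 1047 ± 167 in Control libraries (log2 -0.70 and 0.69, limma adjusted p = 0.00102 and 0.00128). Both encode forkhead factors that Sgk1 phosphorylates. The ubiquitin ligase gene Nedd4l averaged 29.8 ± 11.3 in cKOHet and 65.7 ± 10.5 in Control libraries, a call (adjusted p = 0.0244) that ended without cKOHet replicate 1 or 2 or Control replicate 1 or 4 (adjusted p = 0.0559 to 0.0958). Ndrg1, whose product is a substrate of the kinase, was low, at 14.8 ± 4.37 in cKOHet and 1.02 ± 0.17 in Control libraries. It passed the filter on low values only through the cKOHet libraries, so it had to differ, and its place among the 2 that rose is no support for them.

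**Figure D5:**
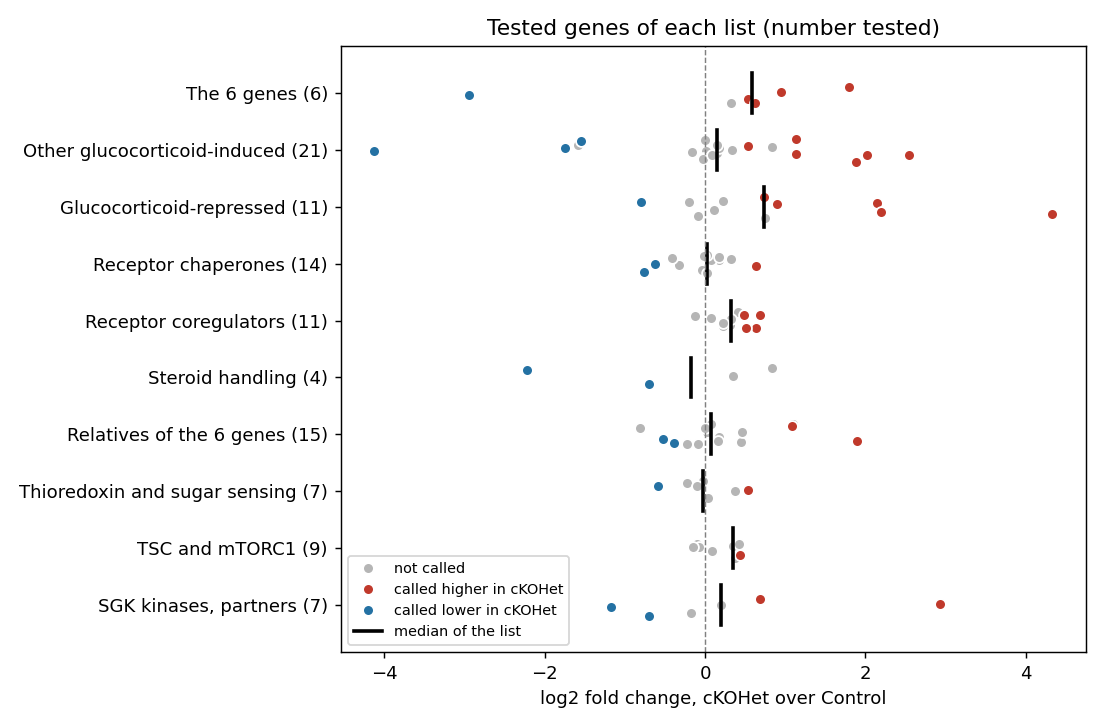
Log2 fold change of cKOHet over Control (horizontal) for every tested gene of each list (dots, coloured by call; number tested in brackets), with the median of each list (black bar). The 6 genes described first have a median of 0.58, and the lists hold genes on both sides of 0, with medians between -0.17 and 0.73.

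Markers of other liver cells were measured beside these genes. The summed level of 7 macrophage markers was 124 to 162 in cKOHet and 23.8 to 80.9 in Control libraries. Clec4f, a lectin of Kupffer cells, averaged 26.6 ± 5.44 in cKOHet and 5.84 ± 4.95 in Control libraries, and Csf1r 26.1 ± 1.67 in cKOHet and 6.15 ± 5.13 in Control libraries (log2 2.31 and 2.17, limma adjusted p = 0.0134 and 0.0117). The call of Clec4f ended without cKOHet replicate 2 (adjusted p = 0.0602), and the size of its difference was 1.64 in log2 without Control replicate 4. Over the libraries with Xist alone neither Clec4f nor Csf1r was called (adjusted p = 0.0894 and 0.0944). The other 5 were not called or not tested. Summed hepatocyte markers, mostly Alb, were at 255 to 619 in cKOHet and 192 to 396 in Control libraries, and neither of the 2 tested was called. Cd8a was called higher (log2 5.21, and 4.43 without cKOHet replicate 2 or 5.83 without cKOHet replicate 1) and Cd8b1 was not, with a sum of 252 to 1693 in cKOHet and 23.7 to 42.2 in Control libraries. Among natural killer cell markers Ncr1 was under 10 in every library. Eomes was low, averaging 17.6 in cKOHet and 4.51 in Control libraries, and was called higher (log2 2.57, adjusted p = 0.039). That call ended without any 1 library except Control replicate 2 (adjusted p = 0.0767 to 0.149). The log2 fold change of Eomes was 3.67 without Control replicate 2 and 1.83 without Control replicate 4. Itga2, the other listed marker of these cells, averaged 90.5 in cKOHet and 91.3 in Control libraries and was not called (log2 -0.03, adjusted p = 0.95). The summed level of these markers overlapped between the groups, at 86.4 to 132 in cKOHet and 99.4 to 111 in Control libraries. Pecam1, an endothelial marker that T cells also express, fell to 43.5 ± 7.48 in cKOHet, against 196 ± 23.9 in Control libraries. The erythroid marker Hba-a1 was not tested, at 7.39 to 33.2 in cKOHet and 0 to 0.0566 in Control libraries. None of the 4 B cell and 3 granulocyte markers listed was among the genes analysed here. Of 7 immediate early and heat shock genes that respond to cell handling, Egr1 and Nr4a1 rose (log2 1.16 and 1.62) and 5 were not called. The share called was 28.6%, against 21.4% of all genes tested, and the median log2 fold change was -0.09. Those not called were Hspa1b, Ier2, Junb, Jun and Dnajb1 (log2 -0.87, -0.53, -0.44, -0.09 and 0.03). The part of these cells and of handling in the levels of the 6 genes was not tested.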

How the data were processed

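Total RNA of sorted cells was sequenced after amplification with the Ovation Ultralow kit, per the labels' protocols. The submitters' processing notes name Trimmomatic 0.33, STAR, HTSeq 0.6.1 and DESeq2, with neither the role of each nor the strand setting. The authors deposited 1 table of normalised read counts (a signal that is never negative) for 12942 genes in 6 libraries. The values are not whole multiples of a read, so raw depth is unknown, no count model was used and no counting interval is given. Every gene listed reaches at least 5.22 in some library. GENCODE M21 (mm10) gave symbols to 12864 of the gene IDs; 78 had none.

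Values were analysed as log2(value + 1) in limma 3.58.1 (R 4.3.3; empirical Bayes with a mean-variance trend), cKOHet minus Control, over the 11226 genes at or above 10 in at least 3 libraries. P-values were adjusted by Benjamini-Hochberg over all of them, with 0.05 as the threshold for a call, and adjusted p-values throughout are from this limma test. Libraries were grouped by title. The fit was also run on simulated counts, with the same spread setting for every gene and far fewer changed genes than were called here. That run does not vouch for the calls in these data. Named genes are the 6, Ets1 and Tbx21, the 4 called genes of each list with the smallest adjusted p (the first 2 where none was called) and the 2 nearest profiles per gene; others are marked. The 6 genes, the lists and the tests were chosen with earlier results of these data known. Alternatives covered the pseudocount, filter, scaling, variance model, replicate block, Xist level and each library left out. Promoter windows are RefSeq's on GRCm38.p6. Thymic cells and mice with only Ets1 floxed, named in the design text, were not analysed here. A listed coregulator is not reported here and is left out of its list's counts and median.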

Additional observations from a re-analysis of the deposited data

How the results depend on the processing

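Over 114 values of the 6 genes under alternatives, 109 kept direction and side of the threshold. The exceptions were these. Without the mean-variance trend Fkbp5 (log2 0.54, adjusted p = 0.0709) and Txnip (log2 0.62, 0.0869) lost their calls, leaving 3 of the 6 called against 5. Over the high-Xist libraries alone (2 against 2) the same genes lost theirs (log2 0.42 and 0.52), again leaving 3, and Nr3c1 turned to -0.0244, as did Alb to -0.0767, Clasp1 to -0.0391 and Pkd1 to -0.0605, none of them called. The cause was not tested. With each library left out, 5 of the 6 were called every time, and all called genes numbered 1883 to 2207. The other settings called 1670 to 2492 genes, against 2407. Of 1132 values of other named genes, 1039 stayed, 88 lost and 2 gained a call. The replicate numbers were not taken as pairs, since the correlations of same-numbered libraries were 0.092, 0.088 and 0.055, though each library correlated best with its own number, a hint only. With the replicate block 2412 genes were called, and Nr3c1 (adjusted p = 0.25), Fkbp5 (0.014) and Txnip (0.00177) kept their side of the threshold, while Rheb (0.0576) lost its call. With 3 libraries a group and raw depth unknown, low genes such as Sgk1 in cKOHet cells have the least certain folds.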
